A study of Mus musculus with 12 samples.

Results

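The gene set described here holds the transforming growth factor beta (TGF-beta) ligands, their latency proteins and their receptors: Tgfb1, Tgfb2, Tgfb3, Ltbp1, Ltbp2, Ltbp3, Ltbp4, Tgfbr1, Tgfbr2 and Tgfbi. The 10 genes were taken by symbol from the 54752 genes of a count table of B16F10 cells, an established mouse melanoma line grown in DMEM with serum. RNA was sequenced from 12 libraries in 4 groups of 3: double knockout (KO) cells, with both Ep300 and Crebbp knocked out, Ep300 KO cells, Crebbp KO cells and control cells with a genotype given as WT. The labels name no treatment, and they do not say whether each knockout is 1 clone or a pool, or whether replicate libraries came from different cultures. Every p-value below thus speaks of the spread among these 12 libraries, which may be technical only. Ep300 and Crebbp encode p300 and CBP, related lysine acetyltransferases that act as transcriptional coactivators.

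TGF-beta is secreted in an inactive form, in which its own propeptide stays wrapped around the growth factor and is in turn bonded to a latent TGF-beta binding protein (LTBP) that anchors the complex in the extracellular matrix. Integrins, proteases and thrombospondin can free the ligand, which then binds the type II receptor TGFBR2. TGFBR2 recruits and phosphorylates the type I receptor TGFBR1, and TGFBR1 phosphorylates SMAD2 and SMAD3, which enter the nucleus with SMAD4. p300 and CBP are known coactivators of SMAD complexes. In melanocytes and melanoma cells the pathway is known for slowing proliferation and for loss of pigment cell differentiation.

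Libraries held 64257251 to 85604243 counts, and no pair of libraries was identical. Of the 10 genes, 8 passed the filter on low counts and were tested with 18434 genes in all. Ltbp2 and Tgfbi did not pass. All 10 melanocyte markers, such as Tyr, Dct and Sox10, were above 1 CPM (counts scaled to a common library size) in every group. Their summed level was 6710 to 6880 CPM in double KO, 14692 to 15398 in Ep300 KO, 18872 to 19668 in Crebbp KO and 20109 to 22055 in control libraries. Single markers differed: Tyr averaged 112 CPM in double KO and 773 in control, and Sox10 averaged 106 and 152. Pmel and Sox10 averaged more in Crebbp KO, at 2728 and 159 CPM, than in control, at 2469 and 152. The other melanocyte markers averaged less in Crebbp KO than in control. None of the 5 endothelial or 6 epithelial markers reached 1 CPM in any group. Of 8 fibroblast markers, Pdgfra, Pdgfrb and Col1a1 exceeded 1 CPM, and the list summed to 14.8 to 16.4 CPM in double KO, 18 to 24 in Ep300 KO, 9.89 to 12.4 in Crebbp KO and 7.43 to 9.48 in control. Of 7 immune markers, Cd68 exceeded 1 CPM, and the list summed to 5.54 to 6.77 CPM in double KO, 3.29 to 3.86 in Ep300 KO, 1.52 to 1.9 in Crebbp KO and 1.73 to 2.19 in control. Within the fibroblast list Col1a1 averaged 8.15 CPM in double KO, 13.8 in Ep300 KO, 4.22 in Crebbp KO and 2.59 in control. Pdgfrb went the other way in double KO, at 2.44 CPM, beside 4.43 in Ep300 KO, 4.45 in Crebbp KO and 4.47 in control. Pdgfra averaged 4.57 CPM in double KO, 1.82 in Ep300 KO, 2.16 in Crebbp KO and 1.39 in control, and Fap 0.317, 0.218, 0.0451 and 0.0707 CPM in the same groups. Dcn, Lum, Thy1 and Col3a1 had 6, 2, 6 and 9 counts over all 12 libraries. Within the immune list Cd68 averaged 6.18 CPM in double KO, 3.47 in Ep300 KO, 1.67 in Crebbp KO and 1.87 in control, and Ptprc, the pan-leukocyte gene, had 2 counts over all libraries. The melanocyte, fibroblast and immune sums move with the groups, and their part in the results below was not tested.

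The targeted genes were read as a check of the labels. Crebbp stood at 64.0 ± 6.13 CPM in double KO, 80.7 ± 11.9 in Ep300 KO, 34.5 ± 3.60 in Crebbp KO and 64.7 ± 7.00 in control libraries (SD, n = 3 each). Ep300 stood at 148 ± 11.1 CPM in double KO, 85.1 ± 8.80 in Ep300 KO, 104 ± 12.4 in Crebbp KO and 94.4 ± 7.72 in control. Crebbp fell in the libraries labelled Crebbp KO (log2 fold change -0.91 ± 0.12, edgeR quasi-likelihood F test, adjusted p = 0.000527). In the libraries labelled double KO, Crebbp was not called (-0.02 ± 0.11, adjusted p = 0.922; with offsets for exon length and GC content -0.17 ± 0.06, adjusted p = 0.02) and Ep300 rose (0.65 ± 0.10, adjusted p = 7.33e-05). Ep300 did not pass the test in those labelled Ep300 KO (-0.15 ± 0.10, adjusted p = 0.376). A gene count does not show which exons remain, so the groups are named here as labelled.

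In the libraries labelled double KO, 7 of the 8 tested genes changed relative to control: Ltbp1, Ltbp4, Tgfb1, Tgfb3, Tgfbr2 and Ltbp3 rose and Tgfbr1 fell, with Tgfb2 not called. Among all tested genes 49.4% were called in that comparison, 24.7% higher and 24.6% lower. Ep300 KO against control gave 5 higher and 2 lower of the 8, beside 16.1% of all genes called, 7.27% higher and 8.83% lower. Crebbp KO against control gave 2 higher and none lower, beside 3.13% of all genes called, 1.52% higher and 1.61% lower. The median log2 fold change of the 8 genes was 1.10 in double KO, 0.69 in Ep300 KO and 0.15 in Crebbp KO against control, and that of all tested genes was -0.02, 0.01 and -0.01 in the same order. The 3 comparisons share the control libraries and are given side by side. In bulk RNA, fewer cells with a transcript and less RNA per cell cannot be told apart.

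**Figure D1:**
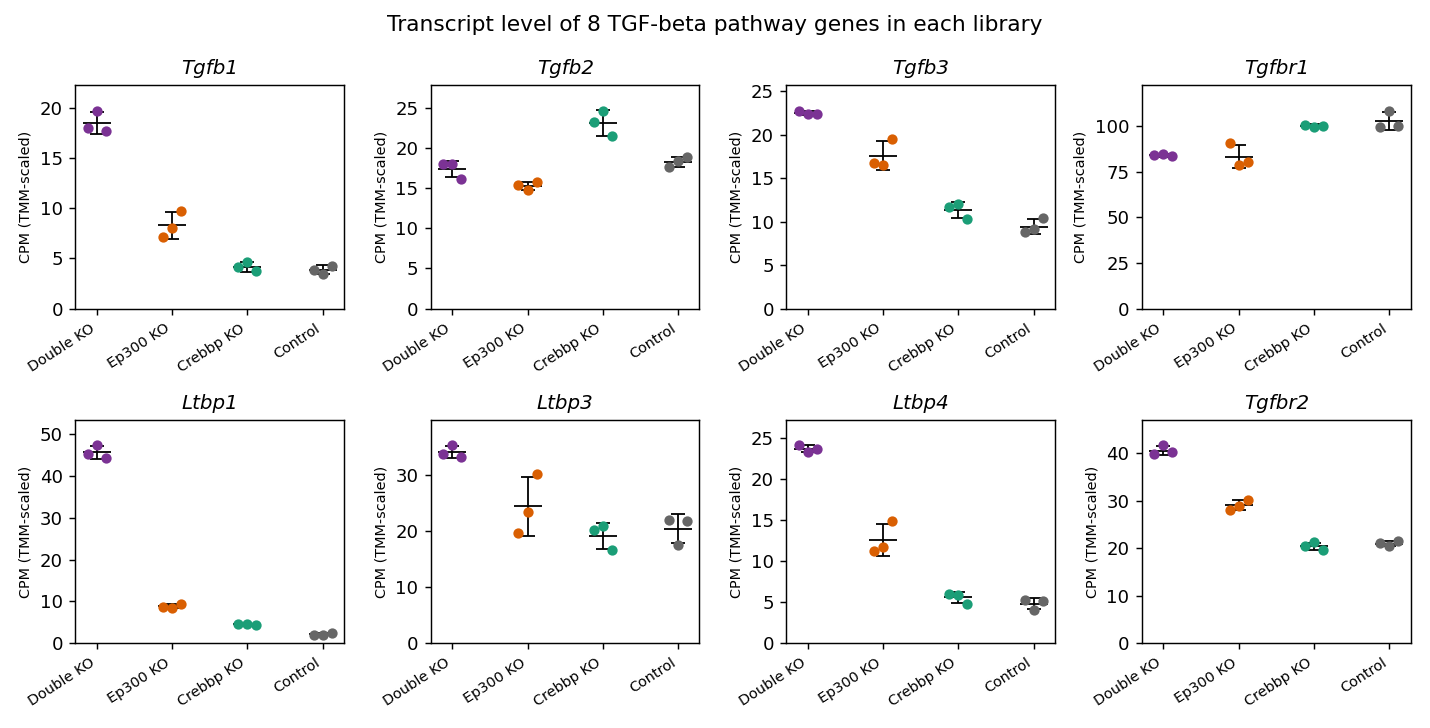
Level of each of the 8 tested genes in every library, in CPM on a linear axis from 0, with groups from double KO on the left to control on the right. Points are libraries, and black lines are group means with 1 SD (n = 3). Ltbp1 spans the widest range, with double KO libraries between 44.4 and 47.4 CPM and control libraries between 2.04 and 2.51 CPM.

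Tgfb1 (mm10, chromosome 7, 25687002 to 25705077, plus strand) encodes the most widely expressed of the 3 ligands. It stood at 18.1, 19.8 and 17.8 CPM in double KO, 7.16, 8.01 and 9.76 in Ep300 KO, 4.13, 4.63 and 3.71 in Crebbp KO and 3.88, 3.43 and 4.29 in control libraries. The double KO libraries were above all others, the Ep300 KO libraries lay between, and Crebbp KO and control overlapped. The log2 fold change against control was 2.25 ± 0.12 (SE) in double KO (adjusted p = 9.94e-10), 1.10 ± 0.12 in Ep300 KO (adjusted p = 1.17e-05) and 0.10 ± 0.13 in Crebbp KO (adjusted p = 0.73), from the same edgeR fit. The 95% interval of the Crebbp KO difference ran from -0.16 to 0.35.

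Tgfb3 (chromosome 12, 86056745 to 86079041, minus strand) encodes a ligand known for its roles in palate and lung development. It stood at 22.8, 22.4 and 22.4 CPM in double KO, 16.8, 16.5 and 19.5 in Ep300 KO, 11.7, 12.0 and 10.3 in Crebbp KO and 8.77, 9.11 and 10.4 in control libraries. The double KO and Ep300 KO libraries were all above control, and the Crebbp KO libraries overlapped control. Tgfb3 rose by a log2 fold change of 1.26 ± 0.09 in double KO (edgeR adjusted p = 2.13e-08) and 0.90 ± 0.09 in Ep300 KO (adjusted p = 3.04e-06). In Crebbp KO the value was 0.27 ± 0.09 (adjusted p = 0.135, unadjusted p = 0.0106). On the opposite strand, the transcripts Gm37804 and Gm48008 overlap 4.82% and 7.6% of the exon bases of Tgfb3. The strand setting of the counting is not given in the sources used here, so reads from these overlaps cannot be assigned.

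Tgfb2 (chromosome 1, 186622792 to 186705989, minus strand) moved apart from the other ligands. Its protein binds TGFBR2 only weakly without the co-receptor betaglycan, the product of Tgfbr3. It stood at 17.9, 18.0 and 16.2 CPM in double KO, 15.4, 14.8 and 15.7 in Ep300 KO, 23.3, 24.6 and 21.4 in Crebbp KO and 17.6, 18.3 and 18.9 in control libraries. The Crebbp KO libraries were the highest and the Ep300 KO libraries the lowest, while double KO overlapped control. The log2 fold change against control was 0.34 ± 0.07 in Crebbp KO (edgeR adjusted p = 0.0217), -0.26 ± 0.07 in Ep300 KO (adjusted p = 0.0258) and -0.07 ± 0.07 in double KO (adjusted p = 0.432), the last with a 95% interval from -0.22 to 0.07. Ep300 KO was below Crebbp KO by -0.60 ± 0.07 (adjusted p = 4.06e-05). Both single KO calls against control were close to the threshold. The Crebbp KO call was lost when control replicate 1, control replicate 3, Crebbp KO replicate 1 or Crebbp KO replicate 2 was left out (adjusted p = 0.0817, 0.064, 0.0759 and 0.109). The Ep300 KO call was lost without control replicate 2, control replicate 3 or Ep300 KO replicate 2 (adjusted p = 0.0511, 0.0929 and 0.0997) and without the filter on low counts (adjusted p = 0.0621). Fitted on only the groups compared, neither was called (adjusted p = 0.0697 in Crebbp KO and 0.0617 in Ep300 KO). The antisense transcript Gm29491 covers 2.14% of the exon bases of Tgfb2.

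The sequences just upstream of Tgfb1 and Tgfb2 are shown because the pair diverged between the single knockouts while sharing a protein family. Each window holds 300 bases, from 250 before to 50 after the RefSeq start on build GRCm38.p6, read 5′ to 3′ on the strand of the gene. Capitals mark a short cAMP response element, TGACG, or its reverse complement.
Tgfb1, chr7:25686752-25687051, plus strand: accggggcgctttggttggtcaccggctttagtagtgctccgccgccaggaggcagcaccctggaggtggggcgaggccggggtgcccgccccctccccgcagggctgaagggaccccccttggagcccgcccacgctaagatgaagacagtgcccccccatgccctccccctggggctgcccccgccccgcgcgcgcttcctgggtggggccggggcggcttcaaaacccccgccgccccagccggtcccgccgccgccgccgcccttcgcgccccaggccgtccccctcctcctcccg
Tgfb2, chr1:186705940-186706239, minus strand: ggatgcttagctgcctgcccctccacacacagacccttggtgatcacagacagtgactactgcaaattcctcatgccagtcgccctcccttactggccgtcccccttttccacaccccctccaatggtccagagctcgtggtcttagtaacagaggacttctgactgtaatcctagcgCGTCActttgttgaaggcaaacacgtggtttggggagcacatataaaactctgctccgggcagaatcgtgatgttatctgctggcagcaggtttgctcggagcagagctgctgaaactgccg
The Tgfb1 window was 77% G and C and held none of the 6 motifs searched on both strands: the full cAMP response element TGACGTCA, its short form TGACG, the AP-1 site TGANTCA, the SMAD box CAGAC, the TEAD site GGAATG and the E-box CACGTG. The Tgfb2 window held 1 short element on the opposite strand at position -72, an E-box at -51 and 2 SMAD boxes at -221 and -204. The short element was present in 20.8% of 32851 RefSeq windows of the same length, the E-box in 7.15% and the SMAD box in 49.6%. A match is a description of letters, not a binding site. No window was matched to Tgfb3.

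The same levels can be restated as the share of each ligand among the 3 transcripts, taken as CPM per kilobase of exon. Tgfb1 made up 27.6% of the ligand transcripts in double KO, 17.3% in Ep300 KO, 10.1% in Crebbp KO and 11.4% in control. Tgfb2 made up 22.5% in double KO, 27.9% in Ep300 KO, 48.9% in Crebbp KO and 47.1% in control. Tgfb3 took 50% in double KO, 54.8% in Ep300 KO, 41% in Crebbp KO and 41.5% in control. By this length, Tgfb2 was the leading ligand transcript by mean share in Crebbp KO and control, and Tgfb3 in double KO and Ep300 KO. The length is the summed exons of all annotated transcripts, 5042 bases over 5 transcripts for Tgfb1 and 3383 bases from 1 for Tgfb3. The order between genes can depend on that choice, and no other length was tried. The sum of the ligands was 13.3 ± 0.373 CPM per kilobase in double KO, 9.49 ± 0.799 in Ep300 KO, 8.17 ± 0.622 in Crebbp KO and 6.71 ± 0.411 in control (SD, n = 3 each). The shares and sums are descriptions and were given no test.

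**Figure D2:**
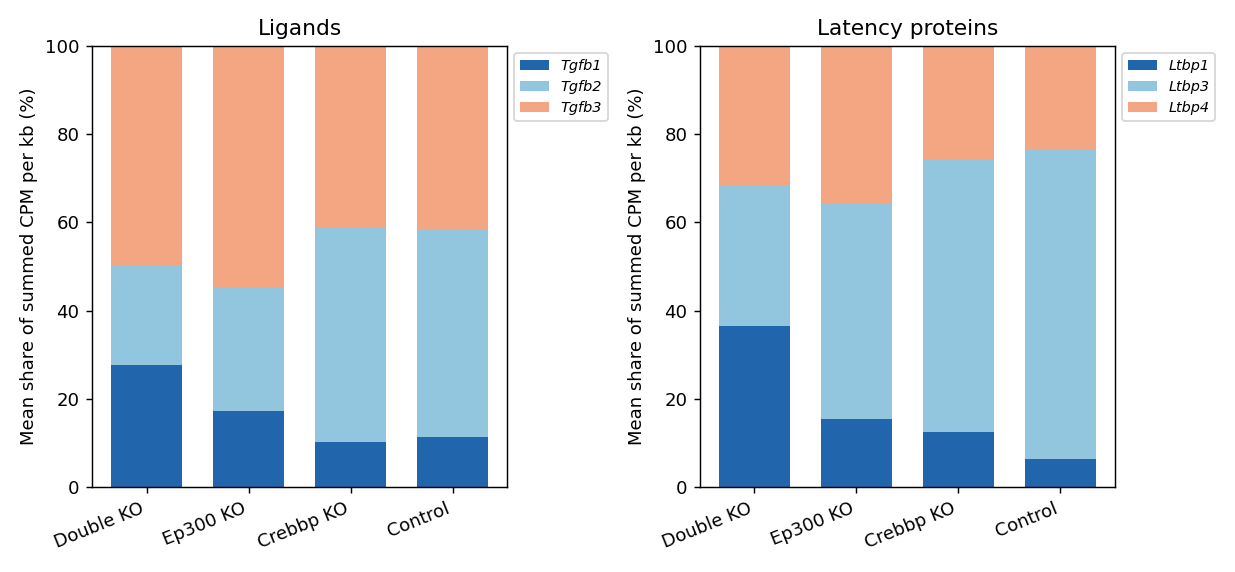
Share of each transcript among the ligands (left) and among the latency proteins (right), as stacked bars in percent of their summed CPM per kilobase of exon, as group means of 3 libraries. Groups run from double KO on the left to control on the right, and Ltbp2 is not drawn because its share is too small to see. By summed exon length, Tgfb2 and Ltbp3 hold the largest shares in control, and Tgfb3 and Ltbp1 in double KO.

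The latency proteins held the largest change. LTBP1, LTBP3 and LTBP4 bind the latent complex, while LTBP2 does not bind latent TGF-beta and is known as a microfibril protein. Ltbp1 (chromosome 17, 75005568 to 75392512, plus strand) stood at 45.4, 47.4 and 44.4 CPM in double KO, 8.78, 8.38 and 9.42 in Ep300 KO, 4.57, 4.69 and 4.33 in Crebbp KO and 2.04, 2.05 and 2.51 in control libraries. No library of a group overlapped a library of another group. Ltbp1 rose against control by a log2 fold change of 4.37 ± 0.09 in double KO (edgeR adjusted p = 2.9e-14), 2.01 ± 0.09 in Ep300 KO (adjusted p = 5.21e-10) and 1.04 ± 0.10 in Crebbp KO (adjusted p = 6.21e-05). Double KO exceeded Ep300 KO by 2.37 ± 0.08 (adjusted p = 5.36e-11) and Crebbp KO by 3.33 ± 0.09 (adjusted p = 2.94e-13). Ep300 KO exceeded Crebbp KO by 0.97 ± 0.09 (adjusted p = 1.25e-06). The counts behind these values were 4010 to 4175 in double KO and 117 to 186 in control libraries.

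RefSeq lists a pair of starts for Ltbp1, known to give a long and a short form of the protein, and both windows are shown because this gene changed most. They come from build GRCm38.p6, and capitals mark the full cAMP response element, the site bound by CREB, the factor that CBP, the CREB-binding protein, is named for.
Ltbp1 window 1, chr17:75005279-75005578, plus strand: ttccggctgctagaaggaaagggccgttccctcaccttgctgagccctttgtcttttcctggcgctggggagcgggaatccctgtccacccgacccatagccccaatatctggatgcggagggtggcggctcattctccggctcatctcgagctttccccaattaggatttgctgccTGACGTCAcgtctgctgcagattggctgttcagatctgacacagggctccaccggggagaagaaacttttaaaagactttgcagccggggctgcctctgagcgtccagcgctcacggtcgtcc
Ltbp1 window 2, chr17:75178531-75178830, plus strand: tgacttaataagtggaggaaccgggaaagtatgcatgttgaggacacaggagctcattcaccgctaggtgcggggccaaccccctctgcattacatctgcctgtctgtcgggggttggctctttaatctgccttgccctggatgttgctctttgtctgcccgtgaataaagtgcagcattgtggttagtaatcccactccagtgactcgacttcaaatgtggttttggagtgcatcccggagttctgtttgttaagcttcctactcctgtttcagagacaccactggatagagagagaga
The upstream window held the full element TGACGTCA at position -73, on both strands since it is palindromic, and 1.79% of all 32851 windows held it. The short form TGACG lies within it on each strand. A SMAD box lay at -64 on the opposite strand. The downstream window held 2 SMAD boxes, at -148 and -97 on the opposite strand, and no cAMP response element. Here too a match is a description of letters, not a binding site, and its part in the Ltbp1 change was not tested. Counts per gene do not show which start was used.

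Ltbp4 (chromosome 7, 27305136 to 27337692, minus strand) encodes a protein needed for elastic fibre assembly that, among the ligands, binds latent TGF-beta 1. It stood at 24.1, 23.3 and 23.7 CPM in double KO, 11.2, 11.7 and 14.9 in Ep300 KO, 6.01, 5.94 and 4.83 in Crebbp KO and 5.22, 4.11 and 5.17 in control libraries. The order of the groups was that of Tgfb1, with Crebbp KO overlapping control. Against control the log2 fold change was 2.29 ± 0.12 in double KO (edgeR adjusted p = 7.78e-10), 1.38 ± 0.12 in Ep300 KO (adjusted p = 9.14e-07) and 0.21 ± 0.13 in Crebbp KO (adjusted p = 0.429). With offsets for exon length and GC content the Ltbp4 change in double KO against control was smaller, at 1.93 ± 0.07 (edgeR adjusted p = 7.5e-13). Double KO against Ep300 KO was then 0.66 ± 0.06 (adjusted p = 7e-07). None of the 6 motifs was found in the 3 RefSeq windows of Ltbp4. The Ltbp3 window held an AP-1 site at -6, a motif in 7.81% of all windows, and the TEAD motif, in 14.7% of all windows, was in none of the 13 windows of these genes.

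Ltbp3 (chromosome 19, 5740904 to 5758532, plus strand) encodes the binding protein known for its role in bone and teeth. It stood at 33.7, 35.2 and 33.2 CPM in double KO, 19.6, 23.3 and 30.0 in Ep300 KO, 20.1, 20.8 and 16.5 in Crebbp KO and 21.9, 17.5 and 21.7 in control libraries. The double KO libraries were above all others, and the other 3 groups overlapped. Ltbp3 rose in double KO by a log2 fold change of 0.74 ± 0.13 against control (edgeR adjusted p = 0.000316). In Ep300 KO the value was 0.25 ± 0.13 (adjusted p = 0.245, 95% interval -0.01 to 0.52), and in Crebbp KO it was -0.10 ± 0.13 (adjusted p = 0.753). With offsets for exon length and GC content the Ltbp3 change in double KO against control was smaller, at 0.42 ± 0.06 (adjusted p = 2.53e-05). Ep300 KO replicate 1 was the lowest and replicate 3 the highest of that group for Ltbp3, Ltbp4 and Tgfb1.

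Ltbp2 was close to background. It had 1, 8 and 3 counts in the double KO libraries, 1, 0 and 1 in Ep300 KO, 0, 2 and 2 in Crebbp KO and 1, 2 and 2 in control, and no fold change is given. Ltbp1 made up 36.5% of the summed latency protein transcripts per kilobase in double KO, 15.4% in Ep300 KO, 12.5% in Crebbp KO and 6.45% in control. Ltbp3 made up 32% in double KO, 48.8% in Ep300 KO, 61.9% in Crebbp KO and 70.1% in control. The sum was 11.7 ± 0.226 CPM per kilobase in double KO, 5.47 ± 0.922 in Ep300 KO, 3.4 ± 0.369 in Crebbp KO and 3.21 ± 0.385 in control.

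After library scaling, the receptors moved in opposite directions in double KO and Ep300 KO against control. Tgfbr2 (chromosome 9, 116084293 to 116175360, minus strand), the ligand-binding type II receptor, stood at 39.7, 41.6 and 40.1 CPM in double KO, 28.0, 28.8 and 30.2 in Ep300 KO, 20.4, 21.2 and 19.6 in Crebbp KO and 21.0, 20.5 and 21.4 in control libraries. Crebbp KO overlapped control, and the other groups were separate. Tgfbr2 rose by a log2 fold change of 0.95 ± 0.06 in double KO (edgeR adjusted p = 6.45e-09) and 0.47 ± 0.06 in Ep300 KO (adjusted p = 5.16e-05), with -0.04 ± 0.06 in Crebbp KO (adjusted p = 0.775).

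Tgfbr1 (chromosome 4, 47353222 to 47414931, plus strand), the type I receptor kinase, stood at 83.9, 84.8 and 83.3 CPM in double KO, 90.6, 78.8 and 80.2 in Ep300 KO, 101, 99.3 and 100 in Crebbp KO and 99.5, 108 and 99.8 in control libraries. The double KO and Ep300 KO libraries were all below both other groups. Tgfbr1 fell by 0.29 ± 0.07 on the log2 scale in double KO against control (edgeR adjusted p = 0.00186) and by 0.30 ± 0.07 in Ep300 KO against control (adjusted p = 0.00428). In Crebbp KO the difference was -0.04 ± 0.07 (adjusted p = 0.813, 95% interval -0.16 to 0.09). Double KO and Ep300 KO differed by 0.01 ± 0.07 (adjusted p = 0.901), with an interval from -0.11 to 0.14. The library scaling factors (trimmed mean of M values, TMM) were 1.10 to 1.12 in double KO and 0.890 to 0.980 in control. They take most genes as unchanged and lower double KO values beside control. The size of the small Tgfbr1 fall in double KO thus depends on that scaling. No setting free of that assumption was tried. Per kilobase, Tgfbr2 made up 27.8% of both receptor transcripts in double KO, 21.8% in Ep300 KO, 14% in Crebbp KO and 14% in control.

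Per kilobase of exon, Tgfbr1 was the most abundant of the 10 transcripts in every group, at 12.9 CPM per kilobase in double KO, 12.7 in Ep300 KO, 15.3 in Crebbp KO and 15.7 in control. Below it in double KO came Tgfb3 at 6.66, Tgfbr2 at 4.94, Ltbp1 at 4.28, Ltbp3 at 3.75, Tgfb1 and Ltbp4 at 3.67 each and Tgfb2 at 3.00 CPM per kilobase. In control the order below Tgfbr1 was Tgfb2 at 3.16, Tgfb3 at 2.79, Tgfbr2 at 2.56, Ltbp3 at 2.25, Tgfb1 at 0.767, Ltbp4 at 0.748 and Ltbp1 at 0.206. Library ranges overlapped between Ltbp3, Tgfb1 and Ltbp4 in double KO, and in control between Tgfb2 and Tgfb3, between Tgfb3 and Tgfbr2 and between Tgfb1 and Ltbp4. By this length Ltbp1 was the lowest of the 8 tested transcripts in control and the fourth highest in double KO. The length is the summed exons of all annotated transcripts, and the order between genes can depend on that choice.

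Tgfbi (chromosome 13, 56609523 to 56639562, plus strand) encodes a secreted matrix protein named for its induction by TGF-beta. It had 0, 0 and 1 counts in the double KO libraries, 5, 1 and 0 in Ep300 KO, 6, 3 and 4 in Crebbp KO and 8, 2 and 10 in control. The highest count, 10, was in a control library, but the control libraries overlapped those of Crebbp KO and Ep300 KO. At this depth the gene stood near the floor in all groups and no fold is given. Without the filter on low counts the edgeR test called Tgfbi lower in double KO than in control (adjusted p = 0.00287) and than in Crebbp KO (adjusted p = 0.0196).

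**Figure D3:**
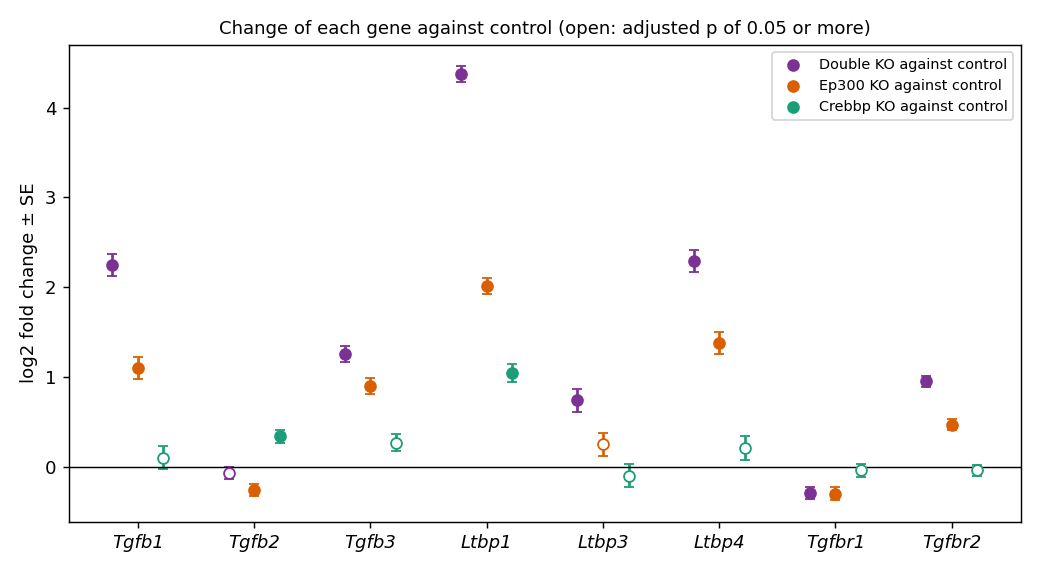
Log2 fold change of the 8 tested genes in double KO, Ep300 KO and Crebbp KO, each against control, with bars of 1 standard error from the edgeR fit. Filled points had an adjusted p under 0.05 and open points did not. The largest value is 4.37 for Ltbp1 in double KO, and Tgfbr1 lies below 0 in double KO and Ep300 KO.

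The knockout groups were also set against each other. Ltbp1, Ltbp4, Tgfb1, Tgfb3 and Tgfbr2 were called higher in double KO than in Ep300 KO, and higher in Ep300 KO than in Crebbp KO. Relative to Ep300 KO, double KO was higher for 6 of the 8 genes and lower for none, beside 34.6% of all tested genes called, 18% higher and 16.6% lower. Relative to Crebbp KO, double KO was higher for 6 and lower for 2, beside 43.2% called, 21.4% higher and 21.8% lower. Ep300 KO against Crebbp KO gave 5 higher and 2 lower, beside 13.6% called, 6.26% higher and 7.37% lower. Tgfb1 exceeded its Ep300 KO level in double KO by 1.15 ± 0.12 on the log2 scale (edgeR adjusted p = 3.52e-06), Ltbp4 by 0.91 ± 0.11 (adjusted p = 3.35e-05), Tgfbr2 by 0.48 ± 0.06 (adjusted p = 3.25e-05) and Tgfb3 by 0.35 ± 0.09 (adjusted p = 0.00592). Ltbp3 exceeded it by 0.48 ± 0.13 (adjusted p = 0.0112), a call that was lost without Ep300 KO replicate 1 (0.35 ± 0.12, adjusted p = 0.0525). With offsets for length and GC content that Ltbp3 difference was 0.25 ± 0.06 (adjusted p = 0.00456). Ep300 KO exceeded Crebbp KO by 1.00 ± 0.12 for Tgfb1 (adjusted p = 4.2e-05), 1.17 ± 0.12 for Ltbp4 (adjusted p = 6.51e-06), 0.64 ± 0.09 for Tgfb3 (adjusted p = 0.000132) and 0.51 ± 0.06 for Tgfbr2 (adjusted p = 3.12e-05). Tgfb2 and Tgfbr1 were the genes lower in double KO than in Crebbp KO, by -0.41 ± 0.07 (adjusted p = 0.000332) and -0.25 ± 0.07 (adjusted p = 0.00567). Tgfbr1 was also lower in Ep300 KO than in Crebbp KO, at -0.27 ± 0.07 (adjusted p = 0.0124), a call that was lost without Ep300 KO replicate 2 (adjusted p = 0.0776) and when only the groups compared were fitted (adjusted p = 0.0638).

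Whether the double KO differed from the sum of both single knockouts was tested as an interaction on the log2 scale. It was positive and called for 4 of the 8 genes and negative for none, beside 10.3% of all genes called, 5.33% positive and 4.96% negative. For Ltbp1 the double KO log2 fold change of 4.37 stood against a sum of 3.04, a difference of 1.33 ± 0.13 (edgeR adjusted p = 1.21e-05). For Tgfb1 it was 2.25 against 1.20, a difference of 1.06 ± 0.17 (adjusted p = 0.00129), and for Tgfbr2 it was 0.95 against 0.43, a difference of 0.52 ± 0.09 (adjusted p = 0.00138). For Ltbp4 it was 2.29 against 1.59, a difference of 0.70 ± 0.17 (adjusted p = 0.0172). The Ltbp4 call was lost without control replicate 1 (adjusted p = 0.0523) or control replicate 3 (adjusted p = 0.0512). With length and GC offsets the Ltbp4 difference was 0.57 ± 0.10 (edgeR adjusted p = 0.000799).

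Tgfb3, Tgfbr1, Tgfb2 and Ltbp3 were not called in that test. Tgfb3 had 1.26 in double KO against a sum of 1.17 (difference 0.09 ± 0.13, edgeR adjusted p = 0.711, 95% interval -0.16 to 0.33). Tgfbr1 had -0.29 against -0.34 (difference 0.05 ± 0.09, adjusted p = 0.788), and Tgfb2 had -0.07 against 0.08 (difference -0.16 ± 0.10, adjusted p = 0.375). Ltbp3 had 0.74 against 0.16 (difference 0.58 ± 0.19, adjusted p = 0.0641). It was called under DESeq2 (adjusted p = 0.0275), without the filter on low counts (adjusted p = 0.000151), with length and GC offsets (0.43 ± 0.09, adjusted p = 0.00344), without control replicate 2 (adjusted p = 0.0241) and without Ep300 KO replicate 3 (adjusted p = 0.00566).

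**Figure D4:**
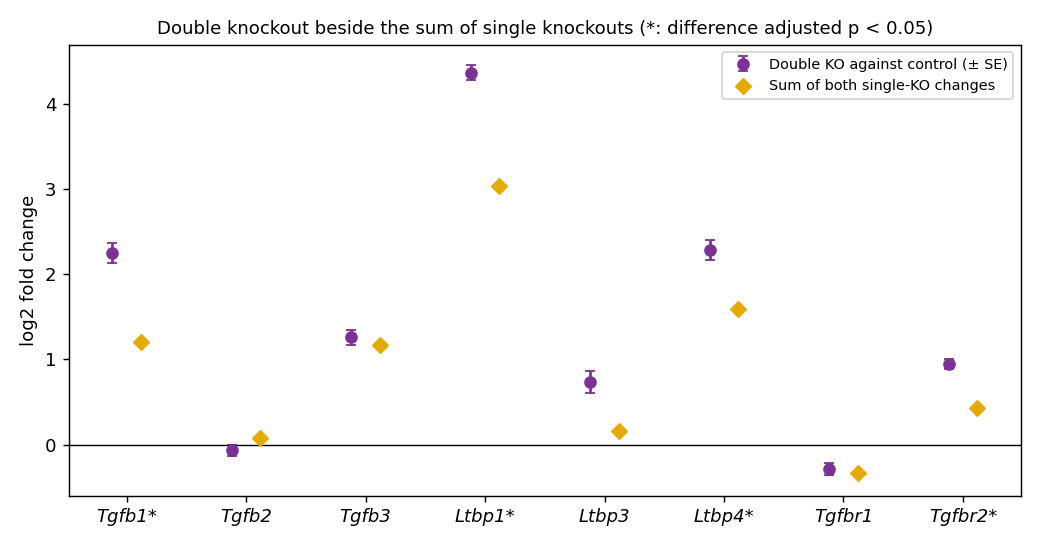
Double KO log2 fold change of each of the 8 tested genes beside the sum of the Ep300 KO and Crebbp KO log2 fold changes, all against control, from the edgeR fit. Circles are the double KO with 1 standard error, diamonds are the sums, and an asterisk marks a difference with an adjusted p under 0.05. Ltbp1 shows the widest gap, 4.37 against 3.04, and Tgfbr1 and Tgfb3 lie close to their sums.

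Other genes of the pathway were read from lists of SMADs and regulators, other receptors, and other ligands and antagonists. Further lists held genes that release or store latent TGF-beta, and genes listed as induced by TGF-beta and SMAD3. The lists were chosen with earlier results of these data known, so their counts and medians are descriptions and no list was tested as a set. Among 20 SMADs and regulators, 10 were higher and 5 lower in double KO than in control, 3 higher and 3 lower in Ep300 KO, and 0 in either direction in Crebbp KO (edgeR adjusted p under 0.05). Over all tested genes the shares were 24.7% higher and 24.6% lower in double KO, 7.27% and 8.83% in Ep300 KO and 1.52% and 1.61% in Crebbp KO, so the 5 lower in double KO are near the share of all genes. In Crebbp KO against control 2 had an unadjusted p under 0.05, DESeq2 and limma-voom called 0, and length and GC offsets gave 1 higher and 1 lower. Skil, a repressor of SMAD complexes, stood at 56.5 CPM in double KO, 37.6 in Ep300 KO, 26.4 in Crebbp KO and 25.5 in control (log2 fold change against control 1.15 ± 0.07 in double KO, adjusted p = 3.39e-09). Tgif1, a SMAD corepressor, stood at 35.3 CPM in double KO and 15.3 in control (1.20 ± 0.08, adjusted p = 1.25e-08). Smad5, a SMAD of the bone morphogenetic protein branch, fell in double KO by 0.49 ± 0.06. Of the SMADs that TGF-beta receptors use, named after their values were seen, Smad2 fell in double KO by 0.35 ± 0.08 (adjusted p = 0.00126). Smad3 and Smad4 were not called there, at -0.01 ± 0.10 (adjusted p = 0.931) and -0.04 ± 0.05 (adjusted p = 0.532).

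Among other receptors and co-receptors 13 of 14 were tested: 5 were higher and 3 lower in double KO than in control, 1 higher and 2 lower in Ep300 KO, and 0 higher and 2 lower in Crebbp KO. Beside 24.7% higher and 24.6% lower of all genes in double KO, the 3 lower are near the share of all genes, and the shares of all genes were 7.27% and 8.83% in Ep300 KO and 1.52% and 1.61% in Crebbp KO. Bambi, a pseudoreceptor without kinase activity that blunts TGF-beta signals, stood at 5.83 CPM in double KO, 12.2 in Ep300 KO, 18.5 in Crebbp KO and 26.7 in control. It fell in all 3 comparisons against control, by 2.19 ± 0.13, 1.12 ± 0.12 and 0.53 ± 0.12 on the log2 scale in the order of those groups. Acvrl1, a type I receptor also called ALK1, fell in double KO by 0.95 ± 0.09, and Acvr1b, the activin type I receptor, rose by 1.02 ± 0.10. Of 22 other ligands and antagonists only 7 were tested, with 4 higher and 0 lower in double KO, 1 higher and 0 lower in Ep300 KO and 1 higher and 0 lower in Crebbp KO, beside 24.7%, 7.27% and 1.52% of all genes higher in those comparisons. Fstl1, a secreted follistatin-like glycoprotein, stood at 74.4 CPM in double KO, 63.1 in Ep300 KO, 52.0 in Crebbp KO and 39.4 in control.

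Of 21 genes that release or store latent TGF-beta, 16 were tested: 11 were higher and 2 lower in double KO than in control, 7 higher and 2 lower in Ep300 KO, and 0 higher and 1 lower in Crebbp KO. Over all tested genes 24.7% were higher and 24.6% lower in double KO, 7.27% and 8.83% in Ep300 KO and 1.52% and 1.61% in Crebbp KO. Their median log2 fold change was 0.77 in double KO, 0.25 in Ep300 KO and 0.00 in Crebbp KO. Thbs1, a matrix protein that can activate latent TGF-beta, stood at 52.1 CPM in double KO, 25.7 in Ep300 KO, 5.86 in Crebbp KO and 6.03 in control (3.11 ± 0.10 in double KO against control, edgeR adjusted p = 2.49e-12). Bmp1, a protease known to cleave LTBP1, rose in double KO by 1.21 ± 0.08 (adjusted p = 1.34e-08). Itgb3, the beta chain of an integrin that binds the latent propeptide, moved the other way, at 6.51 CPM in double KO, 11.6 in Ep300 KO, 18.1 in Crebbp KO and 25.6 in control. The log2 fold change of Itgb3 against control was -1.98 ± 0.08 in double KO, -1.15 ± 0.08 in Ep300 KO and -0.50 ± 0.08 in Crebbp KO, all called.

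Of 23 genes listed here as induced by TGF-beta and SMAD3, 18 were tested. Smad7, Skil, Pmepa1 and Tgif1 stand both in this list and among the SMADs and regulators, so their calls count in both. Against control 12 were higher and 4 lower in double KO, 10 higher and 5 lower in Ep300 KO, and 3 higher and 0 lower in Crebbp KO. The shares of all genes were 24.7% higher and 24.6% lower in double KO, 7.27% and 8.83% in Ep300 KO and 1.52% and 1.61% in Crebbp KO. The count in Crebbp KO was 5 higher and 1 lower with DESeq2 and with length and GC offsets, and 2 higher and 0 lower with limma-voom. The medians of their log2 fold changes were 0.94, 0.43 and 0.18 in the order of those groups. Ccn2, a matricellular protein, stood at 45.5 CPM in double KO, 8.73 in Ep300 KO, 4.57 in Crebbp KO and 4.87 in control, with a log2 fold change of 3.22 ± 0.10 in double KO against control (edgeR adjusted p = 1.28e-12). Junb, an AP-1 subunit, rose in double KO by a log2 fold change of 2.08 ± 0.09 (adjusted p = 7.48e-11). The 4 that fell in double KO, named after their values were seen, were Col1a2 (-3.18 ± 0.21 on the log2 scale), Postn (-2.35 ± 0.20), Id2 (-0.85 ± 0.06) and Pmepa1 (-0.66 ± 0.15). Col1a2 and Postn encode matrix proteins, Id2 an inhibitor of basic helix-loop-helix factors and Pmepa1 a feedback inhibitor of SMAD signals. The list was thus not uniform in direction in double KO or Ep300 KO. Whether TGF-beta raises or lowers each listed gene, Id2 included, in these cells was not tested.

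**Figure D5:**
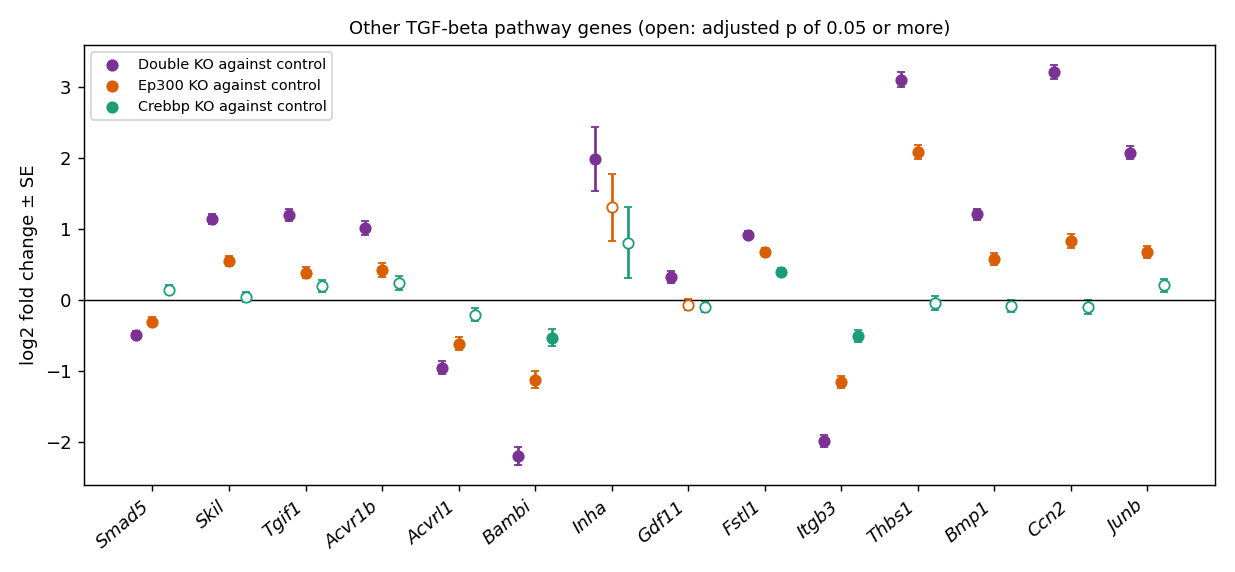
Log2 fold change against control of 14 genes named by rule from the 5 pathway lists, in double KO, Ep300 KO and Crebbp KO, with 1 standard error from the edgeR fit. Filled points had an adjusted p under 0.05 and open points did not. Inha averaged 0.322 CPM in double KO and 0.0768 in control, and its errors are the widest. Values run from -2.19 for Bambi to 3.22 for Ccn2, both in double KO.

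Ltbp1 had the widest range among the 8 genes, and the genes whose log2 CPM followed it most closely over the 12 libraries were named by rule from 9548 genes with a mean above 5 CPM over all libraries. Egr1, an immediate early transcription factor, had a Pearson r of 0.999 with Ltbp1 and stood at 102 CPM in double KO, 17.2 in Ep300 KO, 7.19 in Crebbp KO and 3.21 in control. Dpy19l3 (r = 0.995), H2-Q4 (r = 0.994), Bdnf (r = 0.993), which encodes a neurotrophin, and Trpc1 (r = 0.993), which encodes a cation channel, came next. The 12 points fall into 4 groups and share their libraries between genes, so r is a description with no test. Dpy19l3 had a much narrower range than Ltbp1, at 23.0 CPM in double KO, 13.5 in Ep300 KO, 10.9 in Crebbp KO and 8.80 in control.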

How the data were processed

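RNA was measured in 12 libraries of B16F10 cells, with total RNA extracted on RNeasy columns and libraries made with a KAPA stranded mRNA kit, per the labels' protocols. The deposited values are raw counts per Ensembl gene, with no normalization by the authors. Reads were converted with bcl2fastq, aligned with HISAT2 to mm10 and counted with HTSeq, per the submitters' processing notes. For that step the sources used here give no tool version, strand setting or gene models. Symbols, positions and exon lengths came from a GENCODE annotation of mm10, which matched 54723 of 54752 genes.

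Library totals were 64257251 to 85604243 counts. Genes were filtered with filterByExpr of edgeR, leaving 18434, and TMM factors (trimmed mean of M values) scaled the libraries. Groups were compared with the robust edgeR quasi-likelihood F test on all 12 libraries, with group as the only term. The additivity test took the log2 change of the double KO minus the summed log2 changes of the Ep300 KO and Crebbp KO. Benjamini-Hochberg adjustment ran over all tested genes, with a threshold of 0.05. The error of a log2 fold change is its standard error, taken from the F statistic. Levels between genes are CPM per kilobase of summed exon. The tools were DESeq2 1.42.0, limma 3.58.1 and edgeR 4.0.16 under R 4.3.3.

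The members and gene lists were chosen with earlier results of these data known. The named genes were the 10 members, Ep300 and Crebbp, the 3 non-members of each pathway list with the smallest adjusted p under 0.05 in double KO against control, and the 5 genes most like the member with the widest range; 1 gene that this rule names is not reported here. Alternatives were DESeq2, limma-voom, other scaling, other filters, offsets for length and GC content, only the groups compared, a replicate block and leaving out each library. Promoter windows came from RefSeq on GRCm38.p6 and matched 9 of the 10 members in 13 windows.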

Additional observations from a re-analysis of the deposited data

Results flagged for a closer look

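In 4 genes the same contrast of labelled groups differed by a test of the difference itself (edgeR interaction term). The log2 change of the libraries labelled double KO against those labelled Crebbp KO exceeded the log2 change of those labelled Ep300 KO against control by 1.33 for Ltbp1, 1.06 for Tgfb1, 0.70 for Ltbp4 and 0.52 for Tgfbr2. Their adjusted p-values were 1.21e-05, 0.00129, 0.0172 and 0.00138. It is the same test as that of double KO against the sum of both single knockouts above, not a further result. Of all tested genes 10.3% were called in it, 5.33% positive and 4.96% negative. For Ltbp4 the call was lost without control replicate 1 or control replicate 3 (edgeR adjusted p = 0.0523 and 0.0512).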

How the results depend on the processing

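Across 20 settings, 1080 of 1112 member values kept their direction and their side of the threshold, and 0 called values changed sign. The count of members called in Crebbp KO against control, 2 in the report, was 1 with a replicate block and 1 with only the groups compared, since Tgfb2 was then not called (adjusted p = 0.0561 and 0.0697). It ranged from 1 to 2 when each library was left out. With a replicate block the Tgfb2 call in Ep300 KO was also lost (edgeR adjusted p = 0.0518). In Crebbp KO against control that setting called 0 of the 13 other receptors, Bambi included, and 2 of the 18 genes listed as induced. With group means taken off, same-numbered libraries of different groups correlated at -0.15 to 0.10 (median -0.01, and 0.01 for other pairs). The labels do not say whether same-numbered libraries were made together, and these correlations cannot tell. Over all genes, Crebbp KO against control had 577 calls, against 1270 without the filter on low counts, 1265 with DESeq2, 1420 with length and GC offsets, 321 with the replicate block, 257 with only the groups compared and as few as 214 when a library was left out. The additivity test had 1897 calls over all genes, and 1119 to 2861 when a library was left out.

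Ltbp2 and Tgfbi, with at most 8 and 10 counts in a library, did not pass the filter on low counts and are given as counts.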

Other observations

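LRRC32 and NRROS are membrane proteins that hold latent TGF-beta on the cell surface, and their transcripts moved in opposite directions. Both were chosen after their values were seen. Lrrc32 averaged 1.08 CPM in double KO, 0.227 in Ep300 KO, 0.236 in Crebbp KO and 0.0747 in control and was called higher in double KO than in control (edgeR adjusted p = 7.41e-06). Its control level rests on few counts, so no fold is given. Nrros averaged 3.75 CPM in double KO, 4.89 in Ep300 KO, 6.86 in Crebbp KO and 7.29 in control, and fell in double KO by 0.96 ± 0.09 (adjusted p = 4.11e-07). Plau, which encodes urokinase and was also chosen after its values were seen, averaged 8.38 CPM in double KO, 8.62 in Ep300 KO, 2.43 in Crebbp KO and 2.03 in control. No test of Plau is given here.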
